A study of Mus musculus with 8 samples.

Results

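The smooth muscle type contractile genes followed here are the 10 rows of the raw count table named Acta2, Actg2, Tagln, Cnn1, Cnn2, Myl9, Tpm1, Tpm2, Tpm4 and Cald1, out of 13937 genes in that table, which lists them in capitals as ACTA2, ACTG2, TAGLN, CNN1, CNN2, MYL9, TPM1, TPM2, TPM4 and CALD1. They were taken by name, as a set proposed with earlier results of these data known, and all 10 were tested among 13509 genes. The libraries come from primary brain astrocytes of C57BL/6 pups taken on postnatal day 1, either wild type (WT) littermates or RGC-32 KO animals lacking Response Gene to Complement 32, which is encoded by Rgcc. All cultures were serum-starved overnight. They were then left untreated (WT control and RGC-32 KO control) or stimulated with 10 ng/ml of TGF-β during 24 h (WT TGF-β and RGC-32 KO TGF-β), with 2 biological replicates in each of the 4 groups and 8 libraries in all. The methods name no conditional allele, so other cell types left in a KO culture would carry the deletion too, and the cells had been grown in serum and freed of loosely attached cells by shaking before they were used.

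Smooth muscle shortens when myosin pulls on thin filaments made of actin wound with tropomyosin, and calponin and caldesmon sit on those filaments and restrain the motor. The genes of this apparatus are classical targets of serum response factor (SRF), which binds a DNA element called the CArG box together with its coactivators myocardin or the myocardin-related transcription factors (MRTF). TGF-β is a well known inducer of this program in fibroblasts and mural cells, where smooth muscle α-actin marks the myofibroblast. Astrocytes express several of these genes in culture.

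Total counts ran from 14920561 to 18956038 per library. Rgcc, the targeted gene, was read at 5.16 and 5.61 CPM (the count scaled to the TMM-adjusted library size) in WT control and at 11.9 and 23.1 CPM in WT TGF-β. The KO libraries held 3.89 and 1.66 CPM without and 4.29 and 1.72 CPM with TGF-β, so it was lowest in the KO libraries but not at 0. Its WT minus KO difference was a log2 fold change of 2.54 with TGF-β (unadjusted p = 0.000815, edgeR adjusted p = 0.133). The deleted stretch is not described in the sources used here, so these reads check the labels only in part. Of the 10 astrocyte markers, all were read in every library, and their summed level was 4620 to 6005 CPM in the control libraries and 3585 to 4716 CPM with TGF-β.

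Promoter sequence is shown for the members in which a CArG box or a near match lies close to the start, since this element is what the gene group is best known for. RefSeq promoter windows (GRCm38.p6, 300 bases, 250 of them upstream of the start) were held for 8 of the 10 members, all but Actg2 and Tagln, with 9 windows because Cald1 has 2 starts. An exact CArG box occurred in the windows of Cnn2 and Myl9. A CArG box with 1 G or C in its core, a looser form searched after the data were seen, occurred in those of Acta2 and Myl9. In the lines that follow the capitals mark the box, and each stretch is given 5′ to 3′ on the strand of the gene.
Acta2, first box, chr19:34255438-34255467, minus strand, 94 to 65 bases upstream: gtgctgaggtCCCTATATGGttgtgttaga
Acta2, second box, chr19:34255388-34255417, minus strand, 44 to 15 bases upstream: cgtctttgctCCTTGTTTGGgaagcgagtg
Myl9, exact box, chr2:156775293-156775322, plus strand, 171 to 142 bases upstream: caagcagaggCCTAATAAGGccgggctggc
Myl9, near match, chr2:156775355-156775384, plus strand, 109 to 80 bases upstream: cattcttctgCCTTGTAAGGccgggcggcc
Cnn2, exact box, chr10:79988534-79988563, plus strand, 66 to 37 bases upstream: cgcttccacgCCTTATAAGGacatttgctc

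Among all 32851 RefSeq windows of the same length, 1.63% held an exact CArG box and 8.5% a box with 1 G or C in its core. The SMAD element CAGAC, read on both strands, was present in 3 members (Acta2, Cnn1 and Cald1) and in 49.6% of all windows. The TEAD element CATTCC, read on both strands, was present in 3 members (Acta2, Tpm1 and Cald1) and in 14.7% of all windows. No match to any of the 4 patterns was found in the windows of Tpm2 and Tpm4. These matches are letters in a window and not measured binding. GENCODE M21 starts Acta2 further upstream than RefSeq does, so both Acta2 stretches lie within its annotated first exon, whereas those of Myl9 and Cnn2 lie outside any annotated exon.

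**Figure D1:**
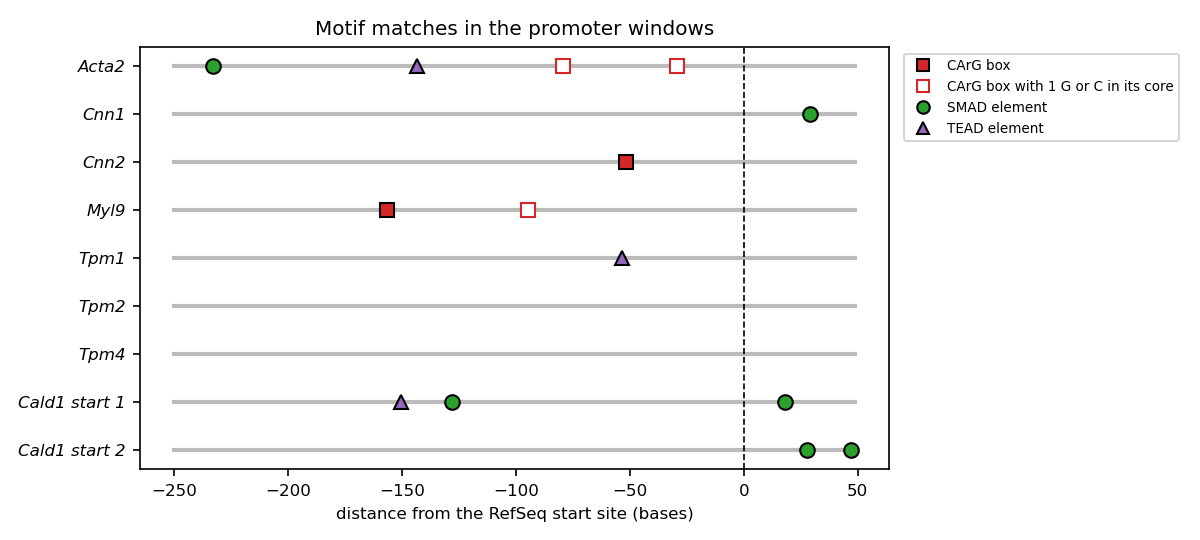
Matches to the 4 motif patterns (symbols) along the RefSeq promoter windows of 8 members (grey lines), by distance from the start site in bases. Cnn2 and Myl9 carry an exact CArG box, Acta2 carries 2 near matches, and Tpm2 and Tpm4 carry no match.

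With TGF-β the group as a whole took a larger part of the transcriptome in both genotypes. The 10 members together held 0.889% and 0.946% of all counts in the WT control libraries and 1.45% and 1.67% after WT cells had TGF-β. KO astrocytes gave 0.826% and 0.836% in control and 1.45% and 1.60% with TGF-β. The TGF-β libraries thus lay above the control libraries in each genotype, and the KO and WT ranges with TGF-β overlapped. In bulk RNA a change in the number of cells that express a gene and a change in RNA per cell cannot be told apart.

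In WT astrocytes 6 of the 10 members rose past the threshold of this study (a change of 0.6 or more on the log2 scale with an edgeR adjusted p under 0.05) and 0 fell, where 7.72% of all genes tested rose and 5.65% fell. In RGC-32 KO astrocytes 7 of 10 rose and 0 fell, where 6.61% of all genes rose and 4.93% fell. Acta2, Actg2, Tagln, Tpm1, Tpm2 and Cald1 passed in both genotypes, and Myl9 passed in the KO. With Bonferroni's correction in place of the adjustment used, 0 members passed in either genotype, and with a test against a fold of 1.5 (glmTreat) 3 passed in each, Acta2, Actg2 and Tagln. At the adjusted p alone, whatever the fold, 9 of 10 were higher in each genotype, all but Cnn1, against 18.6% of all genes in WT and 16.6% in the KO. Both TGF-β libraries lay above both control libraries for 9 of 10 members in WT (35.4% of all genes) and for 10 of 10 in the KO (34.3%). Over the members the log2 fold change had a median of 0.80 in WT and 0.83 in the KO, beside medians of -0.00479 and 0.00311 over all genes. Changes are given from here on as the log2 fold change ± its SE.

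**Figure D2:**
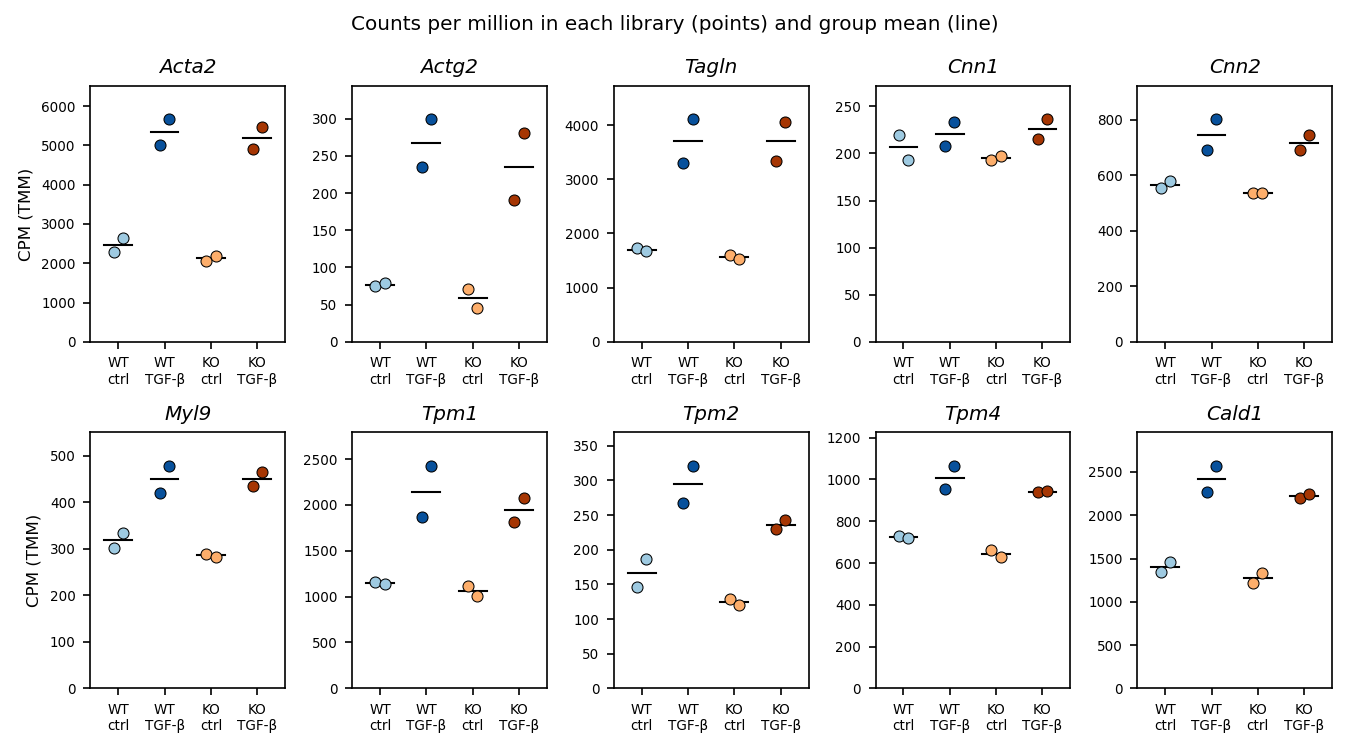
CPM of each member (vertical axis, from 0) in the 2 libraries of each group (points), with the group mean (line). For every member but Cnn1 both TGF-β points sit above both control points in WT, and for all 10 in the KO.

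Thin filaments are built on actin, and the 2 smooth muscle actins of the group gave, together with Tagln, its 3 largest responses. Acta2 encodes smooth muscle α-actin and lies on the minus strand of chr19:34241090-34255590 (GRCm38). In WT it stood at 2293 and 2651 CPM in control and at 5000.2 and 5662 CPM with TGF-β. In the KO it stood at 2055 and 2189 CPM in control and at 4915 and 5465 CPM with TGF-β. The treated libraries lay far above the controls, and the WT and KO ranges with TGF-β overlapped. Acta2 rose by 1.11 ± 0.11 (adjusted p = 0.000538) in WT astrocytes and by 1.29 ± 0.12 (adjusted p = 0.000369) in KO astrocytes.

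Actg2 encodes smooth muscle γ-actin, typical of gut and bladder, on chr6:83512905-83536265 (minus strand). It was read at 74.8 and 79.1 CPM in WT control and at 236 and 299 CPM in WT TGF-β. Its KO values were 71.1 and 45.6 CPM in control and 190 and 281 CPM with TGF-β. Actg2 had the largest fold of the 10 in each genotype and also the largest SE. It rose by 1.80 ± 0.24 (adjusted p = 0.00141) in WT astrocytes and by 2.02 ± 0.24 (adjusted p = 0.00117) in KO astrocytes.

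Tagln encodes transgelin (SM22α), an actin cross-linking protein of the calponin family that is an early marker of the smooth muscle program. The gene lies on chr9:45929619-45936058 (minus strand). WT control held 1722 and 1672 CPM and WT TGF-β 3306 and 4105 CPM. KO control held 1606 and 1526 CPM and KO TGF-β 3344 and 4052 CPM. The 2 treated groups covered nearly the same range. Its rise was 1.13 ± 0.13 (adjusted p = 0.000829) for WT and 1.24 ± 0.13 (adjusted p = 0.000693) for KO astrocytes. Of its exonic bases, 62.4% overlap the antisense gene Gm48529 and 5.43% the gene Pcsk7 on the other strand, and because the libraries are unstranded reads from either strand cannot be told apart there.

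Tropomyosins run along the actin groove and set which myosins and regulators can bind. Tpm1, the α-tropomyosin gene on chr9:67022590-67049406 (minus strand), stood at 1164 and 1138 CPM in WT control and at 1864 and 2427 CPM in WT TGF-β. In the KO it went from 1120.3 and 1012 CPM in control to 1814 and 2079 CPM with TGF-β. Treated libraries exceeded controls in each genotype. The rise was 0.90 ± 0.13 (adjusted p = 0.00227) for WT and 0.87 ± 0.13 (adjusted p = 0.00318) for KO astrocytes, and this was the one member with the larger estimate in WT.

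Tpm2, the β-tropomyosin gene on chr4:43514711-43523765 (minus strand), was read at 146 and 187 CPM in WT control and at 267 and 321 CPM in WT TGF-β. KO control held 128 and 121 CPM and KO TGF-β 230 and 243 CPM. Tpm2 was lower in the KO libraries under both conditions, without overlap, as were 17.4% of all genes in control and 22.4% with TGF-β. The difference between genotypes did not pass the test (edgeR adjusted p = 0.5995 in control and 0.389 with TGF-β). Within each genotype Tpm2 rose, by 0.82 ± 0.13 (adjusted p = 0.00254) in WT astrocytes and by 0.92 ± 0.13 (adjusted p = 0.00200) in KO astrocytes.

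Tpm4, on chr8:72134975-72153142 (plus strand), encodes a short tropomyosin of non-muscle cells that is also found in smooth muscle. It stood at 731 and 719 CPM in WT control, 954 and 1065 CPM in WT TGF-β, 662 and 628 CPM in KO control, and 939.9 and 944 CPM in KO TGF-β. All treated libraries were above all control libraries. The difference was under the fold limit, at 0.48 ± 0.08 (adjusted p = 0.00292) for WT and 0.55 ± 0.08 (adjusted p = 0.00202) for KO astrocytes. Of its 50-base transcript windows, 15.7% also occur in other genes, mostly Gm7809, and 6.08% of its exonic bases overlap the antisense gene Gm26586, so a small part of its reads could belong elsewhere.

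Calponins bind actin and inhibit the myosin ATPase, and both stayed under the fold limit. Cnn1, the smooth muscle calponin on chr9:22099216-22109630 (plus strand), stood at 220 and 193 CPM in WT control and at 208 and 233 CPM in WT TGF-β. In the KO the values were 193 and 197 CPM in control and 216 and 236 CPM with TGF-β. WT groups overlapped, and the KO groups were close but apart. Cnn1 did not pass the test in either genotype, with a change of 0.10 in WT (95% interval -0.10 to 0.29, adjusted p = 0.432) and 0.21 in the KO (0.01 to 0.41, adjusted p = 0.103). The WT estimate turns negative, to -0.06, when libraries are scaled by total counts.

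Cnn2, a calponin of smooth muscle and many other adherent cells on chr10:79988584-79996062 (plus strand), was read at 555 and 578 CPM in WT control and at 691 and 801 CPM in WT TGF-β. KO control held 537 and 536 CPM and KO TGF-β 689 and 744 CPM. The groups did not overlap in either genotype. The difference, 0.40 ± 0.09 (adjusted p = 0.0103) for WT and 0.42 ± 0.09 (adjusted p = 0.00994) for KO astrocytes, was under the fold limit. The exact CArG box shown above for Cnn2 is 56 to 47 bases upstream of its start.

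On the motor side, Myl9 encodes the regulatory light chain of smooth muscle myosin, whose phosphorylation starts contraction, on chr2:156775420-156781658 (plus strand). WT libraries held 302 and 334 CPM in control and 420.0 and 478 CPM with TGF-β. KO libraries held 289.5 and 283 CPM in control and 434 and 465 CPM with TGF-β. The treated groups overlapped each other and lay above both controls. For WT the change was 0.50 ± 0.08 (adjusted p = 0.00385), under the fold limit, and for KO astrocytes 0.65 ± 0.08 (adjusted p = 0.00158). The KO call is close to the limit and is lost without RGC-32 KO TGF-β replicate 2, at 0.58, while the direction holds. The call is also lost under upper quartile and total count scaling, at 0.57 and 0.52, and on FPKM, at 0.47.

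Cald1 encodes caldesmon, which ties actin to myosin and blocks the motor until calmodulin relieves it, on chr6:34598500-34775473 (plus strand). It stood at 1343 and 1463 CPM in WT control and at 2272 and 2571 CPM in WT TGF-β. KO control held 1216 and 1335 CPM and KO TGF-β 2198 and 2242 CPM. The treated libraries were above the controls without overlap. Cald1 rose by 0.79 ± 0.09 (adjusted p = 0.000946) in WT astrocytes and by 0.80 ± 0.09 (adjusted p = 0.00109) in KO astrocytes.

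Within each TGF-β group the second library held the higher CPM for 10 of 10 members, in WT and in the KO, where 50.6% and 50.4% of all genes were higher in that library. In the control groups 6 of 10 members were higher in the second WT library and 3 of 10 in the second KO library. The members therefore varied together between treated replicates. Over the 8 libraries the Pearson correlation of log2 CPM between members other than Cnn1 ran from 0.923 (Tagln and Tpm2) to 0.994 (Acta2 and Cald1). Cnn1 correlated with the other members at 0.665 to 0.801. These 8 points share the TGF-β contrast, so the values describe the set and carry no test.

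Whether the response depends on RGC-32 was tested as the difference between the WT and the KO response. Of the 10 members 0 passed the threshold, as did 0% of all genes. Over all genes, edgeR gave 0 calls after adjustment and 381 genes at an unadjusted p under 0.05, and DESeq2 and limma-voom gave 0. For 9 of 10 members the estimate was negative, that is the KO response was the larger (47.7% of all genes were positive), and every member had an adjusted p of 1.00. For 7 of the 10 members the sign turned when 1 library was left out. The intervals show what size of difference the data leave room for. For Acta2 the difference was -0.18 (95% interval -0.55 to 0.19), for Actg2 -0.22 (-0.99 to 0.55) and for Tagln -0.11 (-0.54 to 0.31), on the log2 scale. The narrowest interval was that of Tpm4, at -0.07 (-0.31 to 0.18). The 9 negative signs are not independent of each other, since the members vary together.

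**Figure D3:**
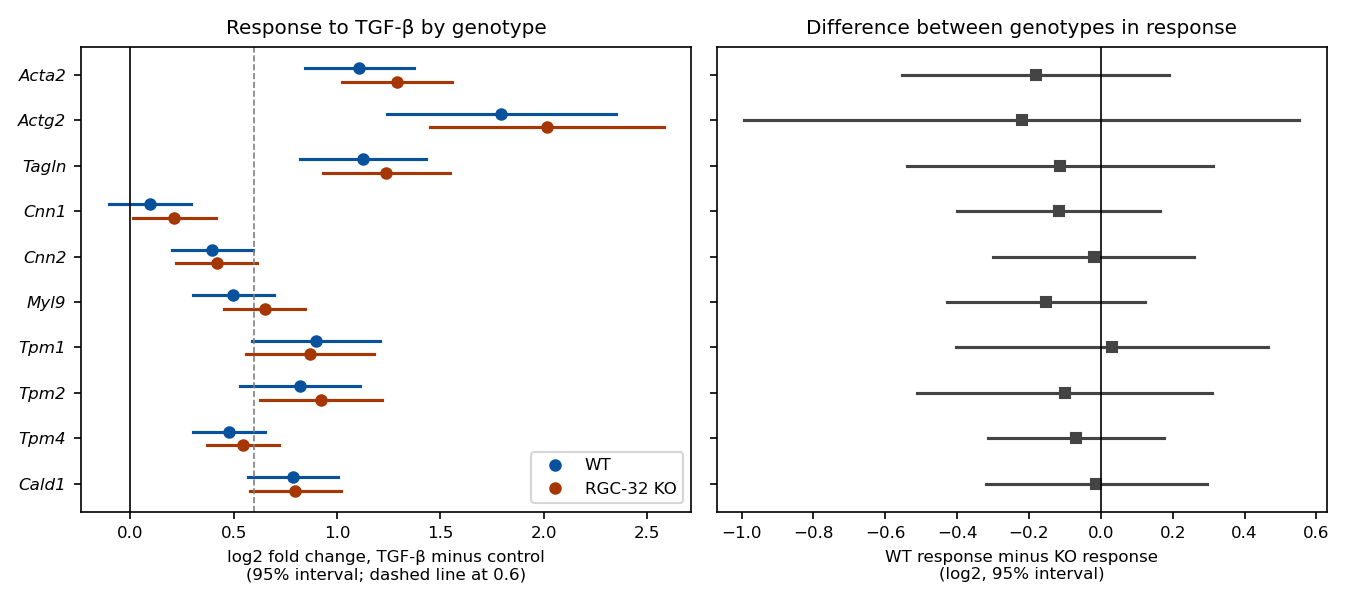
Left, log2 fold change of each member with TGF-β in WT (blue) and RGC-32 KO (brown) with 95% intervals and the 0.6 limit (dashed). Right, the WT response minus the KO response with its 95% interval, which spans 0 for all 10 members.

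Compared directly between genotypes, 0 of 10 members passed the threshold without TGF-β, where 0.037% of all genes did, and 0 of 10 with TGF-β, where 0.0444% did. In control cultures all 10 estimates were higher in WT, beside 52.4% of all genes, and both WT libraries lay above both KO libraries for 9 of 10 members (17.4% of all genes). With TGF-β 8 of 10 estimates were higher in WT and 3 of 10 members, Tpm2, Tpm4 and Cald1, were apart in that direction (22.4% of all genes). As in the interaction, these signs are not independent of each other, since the members vary together. Tpm2 had the largest difference, at 0.42 ± 0.13 (unadjusted p = 0.0114, adjusted p = 0.5995) in control and 0.32 ± 0.12 (unadjusted p = 0.0357, adjusted p = 0.389) with TGF-β. For Acta2 the same differences were 0.22 (95% interval -0.04 to 0.48) and 0.04 (-0.22 to 0.30). In the same control libraries the summed astrocyte markers were 4620 and 4847 CPM in WT and 5342 and 6005 CPM in the KO. The summed fibroblast markers were 4539 and 5822 CPM in WT and 3907 and 3745 CPM in the KO, and the summed mural cell markers 300.2 and 272 CPM in WT and 259 and 242 CPM in the KO. The summed levels of all 3 lists kept these orders with TGF-β. Astrocyte markers were then at 3705 and 3585 CPM in WT and 4384 and 4716 CPM in the KO, fibroblast markers at 8966 and 10107 CPM and at 6859 and 6702 CPM, and mural cell markers at 815 and 970.4 CPM and at 636 and 761 CPM. Without its 3 collagens, split off after the values were seen, the fibroblast list overlapped between genotypes with TGF-β. Its other genes then summed to 655 and 712 CPM in WT and 684 and 629 CPM in the KO. In control they summed to 888 and 1026 CPM in WT and 780.2 and 789 CPM in the KO. The part of these markers in the genotype differences was not tested.

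Levels of different genes are compared on the authors' FPKM, which divides by transcript length. In WT control the order by mean FPKM was Tagln (931), Acta2 (733), Tpm1 (523), Tpm4 (306), Cald1 (298), Myl9 (297), Cnn2 (289), Cnn1 (87.7), Actg2 (48.5) and Tpm2 (45.5). Of neighbours in this order, Tpm4 and Cald1, Cald1 and Myl9, Myl9 and Cnn2, and Actg2 and Tpm2 overlapped in their 2 libraries, while both Tpm4 libraries were above both Cnn2 libraries. With TGF-β Actg2, at 153 and 167 FPKM in WT, moved above Cnn1, which stayed at 82.8 and 89.6 FPKM. In the KO the same pair stood at 117 and 150 FPKM (Actg2) and 83.9 and 92.6 FPKM (Cnn1). The ratio of Tagln to Cnn1 in FPKM was 10.1 and 11.2 in WT control and 21.3 and 22.1 in WT TGF-β, and in the KO it went from 10.5 and 10.2 to 20.99 and 20.7.

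**Figure D4:**
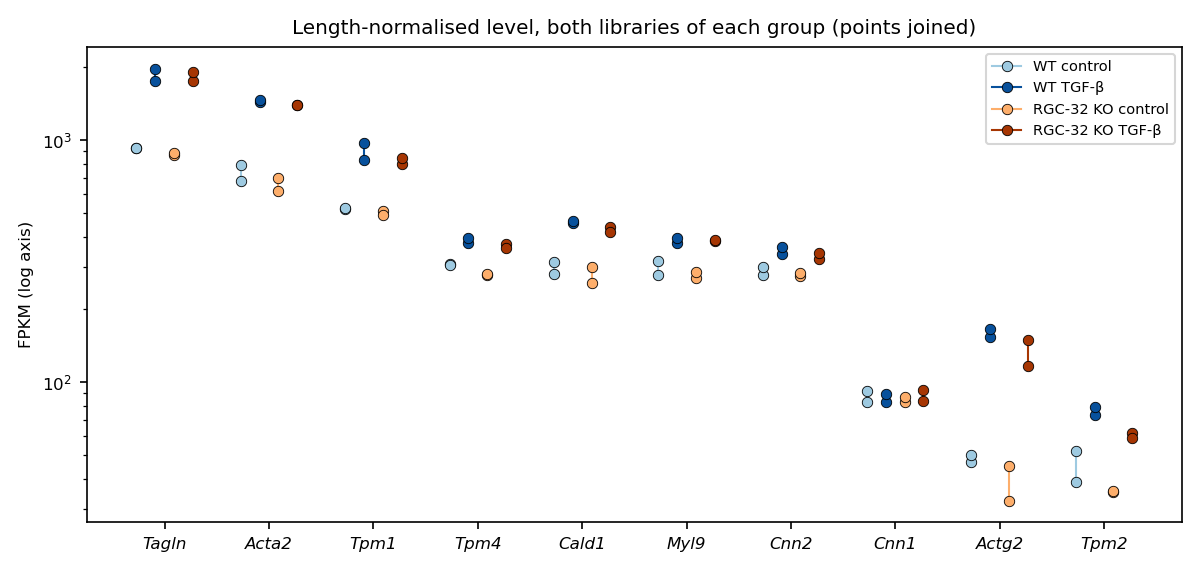
FPKM of each member on a log axis, ordered by the WT control mean, with both libraries of each group as joined points. Actg2 lies below Cnn1 in both control groups and above it in both TGF-β groups, while Cnn1 hardly moves.

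Mean shares within each gene family, taken over its summed FPKM, moved up for Acta2, Actg2, Tpm1, Tpm2, Cnn2 and Tagln. The mean share of Tpm4 moved down, and that of Cnn1 changed little. Acta2 made up 18.4% ± 3.0 (SD, n = 2) of the FPKM of the 6 actin genes in WT control and 28.03% ± 0.19 in WT TGF-β. In the KO its share was 16.8% ± 1.4 and 27.7% ± 1.3. The share of Actg2 moved from 1.22% to 3.09% for WT and from 0.994% to 2.64% for KO cells. The cytoplasmic actins Actb and Actg1 still formed the larger part, at 36.8% and 32.1% in WT TGF-β. Among tropomyosins Tpm1 moved from 51.0% to 59.0% for WT and from 52.0% to 58.4% for KO cells, and Tpm2 from 4.43% to 5.02% and from 3.70% to 4.29%. The WT libraries overlapped for Tpm2, at 3.78% and 5.09% in control and 5.12% and 4.92% with TGF-β. Tpm4 moved the other way, from 29.8% to 25.3% and from 28.9% to 25.9%, as did the non-member Tpm3, from 14.7% to 10.7% and from 15.3% to 11.3%. Cnn1 held 9.06% and 8.54% of calponin FPKM in WT and 8.39% and 8.47% in the KO, and Cnn2 moved from 29.8% to 34.8% and from 27.5% to 31.9%. The non-member Cnn3 held the larger share in WT, at 61.2% and 56.7%. Tagln held 84.5% of transgelin FPKM in WT control and 89.9% in WT TGF-β, and 82.4% and 88.8% in the KO. These shares are descriptions with 2 libraries a group.

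Among the paralogues outside the group, 1 of 10 tested rose past the threshold and 1 fell in each genotype. Of all genes 7.72% rose and 5.65% fell in WT, and 6.61% and 4.93% in the KO. At the adjusted p alone, whatever the fold, 8 of 10 changed in each, beside 4450 of 13509 genes in WT and 3835 in the KO. On the log2 scale Tagln2 rose by 0.52 in WT and 0.51 in the KO (adjusted p = 0.00949 and 0.0122). Myl12a rose by 0.44 and 0.59 (adjusted p = 0.00890 and 0.00350), and Myl12b fell by 0.54 and 0.35 (adjusted p = 0.00220 and 0.0149). Myl6 and Tpm3 rose by less. These genes are named after their values were seen. Acta1, skeletal muscle α-actin, rose by 1.63 in WT (adjusted p = 0.00650) and 1.78 in the KO (adjusted p = 0.00508) on the log2 scale, from 2.06 and 1.25 CPM to 4.09 and 6.20 CPM in WT. Per length it stayed far below Acta2, with an FPKM of 1.02 to 3.90 over the 8 libraries beside 615 to 1466 for Acta2. Tagln3, a neuronal transgelin, fell by 0.64 in WT (adjusted p = 0.00844) and by 0.73 in the KO (adjusted p = 0.00449). Actb changed by 0.26 (adjusted p = 0.159) and Actg1 by 0.35 (adjusted p = 0.0195) on the log2 scale in WT, and by 0.24 (adjusted p = 0.213) and 0.33 (adjusted p = 0.0276) in the KO, all under the fold limit. Actc1 was held at 5 counts or fewer and was not tested. Of the 50-base transcript windows of Acta2 0.326% occur in another gene and of Actg2 0%, so reads of the 2 smooth muscle actins are separable at that length.

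Of 18 other smooth muscle contractile genes, 16 were tested. In WT 7 rose and 1 fell, and in the KO 8 rose and 1 fell, with medians of 0.58 and 0.61 on the log2 scale. The shares over all genes were 7.72% and 5.65% in WT, and 6.61% and 4.93% in the KO. Myh11, the smooth muscle myosin heavy chain and its most specific marker, rose by 1.28 in WT (adjusted p = 0.00600) and 0.76 in the KO (adjusted p = 0.0434), but from a very low level. It held 22 and 38 counts in WT control and 83 and 69 in WT TGF-β, and its FPKM was 0.188 to 0.451 over the 8 libraries. Nexn, an actin-binding protein, rose by 1.09 (adjusted p = 0.000486) and 1.20 (adjusted p = 0.000409). Kcnmb1, the β subunit of the smooth muscle calcium-activated potassium channel, rose by 1.02 (adjusted p = 0.0204) and 1.43 (adjusted p = 0.00698). Its level was also low, at 48 to 156 counts and an FPKM of 0.684 to 1.74 over the 8 libraries. Smtn, smoothelin, rose by 0.78 (adjusted p = 0.000847) and 1.00 (adjusted p = 0.000440). The gene that fell was Itga8, an integrin subunit, by 0.84 in WT (adjusted p = 0.0119) and by 0.69 in the KO (adjusted p = 0.0313). It is named after its value was seen. Des and Ppp1r14a are not in the count table, and their FPKM was at most 0.112 and 0.408.

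Of 12 regulators of SRF target genes, 11 were tested. In WT 5 rose and in the KO 4, and 0 fell in either, with medians of 0.14 and 0.18 on the log2 scale. Over all genes 7.72% rose and 5.65% fell in WT, and 6.61% and 4.93% in the KO. The central factors did not pass. Srf stood at 79.8 and 81.9 CPM in WT control and at 90.1 and 87.9 CPM in WT TGF-β, a change of 0.14 (adjusted p = 0.0887), and gave 0.07 (adjusted p = 0.389) in the KO. Mrtfa, listed under its older symbol Mkl1, gave 0.14 (adjusted p = 0.114) and 0.11 (adjusted p = 0.208). Mrtfb, listed as Mkl2, gave -0.06 (adjusted p = 0.634) and -0.16 (adjusted p = 0.216). Myocd, encoding myocardin, had at most 7 counts in any library and was not tested.

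Among the regulators that rose, Elk3, a ternary complex factor of the ETS family, rose by 0.73 in WT (adjusted p = 0.000139) and 0.84 in the KO (adjusted p = 0.000123) on the log2 scale. Prkg1, cyclic GMP-dependent kinase, rose by 0.83 (adjusted p = 0.00408) and 0.78 (adjusted p = 0.00752). Csrp2, a LIM protein of smooth muscle, rose by 0.72 (adjusted p = 0.00875) and 1.04 (adjusted p = 0.00255). Elk4 rose by 0.87 in WT (adjusted p = 0.00344) and was at 0.35 (adjusted p = 0.105) in the KO, and its difference between genotypes was not past the threshold. Klf4, a factor that represses smooth muscle genes, rose by 0.60 (adjusted p = 0.00547) and 0.61 (adjusted p = 0.00735) and is named after its value was seen. Both Klf4 calls lie just past the fold limit of 0.6, at 0.601 and 0.605.

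**Figure D5:**
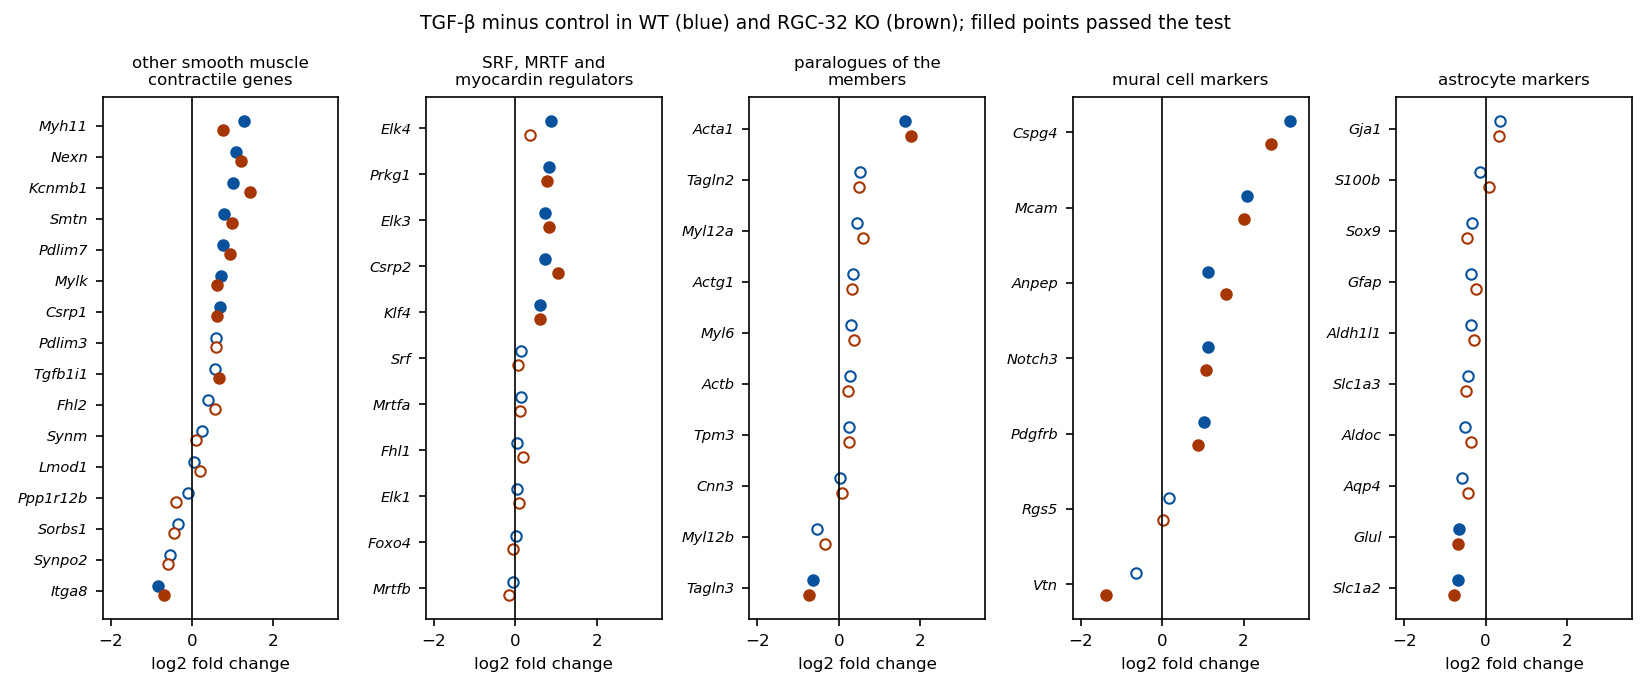
Log2 fold change with TGF-β (horizontal axis) of the tested genes of 5 lists, in WT (blue) and RGC-32 KO (brown), with filled points past the threshold. Most mural cell markers read here lie to the right and most astrocyte markers to the left of 0.

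Markers of other cell types were read in the same libraries. Beside all marker counts below, 7.72% of all genes rose and 5.65% fell in WT, and 6.61% and 4.93% in the KO. Of 12 mural cell markers 7 were tested, and 5 rose in WT (Cspg4, Mcam, Notch3, Anpep and Pdgfrb), with the same 5 higher and Vtn lower in the KO. Their summed level was 242 to 300 CPM in the control libraries and 636 to 970 CPM with TGF-β. Rgs5, a defining pericyte marker, was at 3.76 to 5.15 CPM with log2 fold changes of 0.17 and 0.03 that did not pass the test. Kcnj8, Abcc9, Higd1b, Ndufa4l2 and Des are not in the count table. The FPKM of Kcnj8, Higd1b, Ndufa4l2 and Des was at most 0.205, 0.0758, 0.332 and 0.112, and none was read for Abcc9. For the fibroblast list, 4 of 12 tested genes rose (Col1a1, Col1a2, Crabp2 and Aldh1a2) and 4 fell (Dcn, Ogn, Pdgfra and Ranbp3l) in WT. The same 4 rose in the KO, where Pdgfra and Ranbp3l fell, and the list's median was -0.23 in WT and -0.13 in the KO on the log2 scale. Its 3 collagens summed to 2956 to 4795 CPM in control and 6072 to 9394 CPM with TGF-β, whereas its other genes, split off after the values were seen, summed to 780.2 to 1026 CPM in control and 629 to 712 CPM with TGF-β.

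Endothelial markers summed to 104 to 132 CPM in control and 71.1 to 84.4 CPM with TGF-β, with 1 of 6 higher (Flt1) and 1 lower (Cdh5) in WT and 1 higher (Flt1) and 2 lower (Cdh5 and Kdr) in the KO. Cldn5 and Emcn had an FPKM of at most 0.0184 and 0.0664. Microglial markers summed to 1333 to 1630 CPM in control and 1201 to 1584 CPM with TGF-β, and 1 of 12 (Tmem119) rose in each genotype. Of the oligodendrocyte lineage, Cnp fell in both genotypes. Astrocyte markers gave 0 higher and 2 lower of 10 (Slc1a2 and Glul, which handle glutamate) in each genotype, at a median change of -0.39 (WT) and -0.40 (KO) on the log2 scale. At the adjusted p alone, whatever the fold, 8 of 10 changed in WT and 7 of 10 in the KO, beside 4450 and 3835 of 13509 genes. Aqp4, Aldh1l1, Slc1a3 and Sox9 were among those lower in both genotypes. Gja1 went the other way, by 0.35 in WT (edgeR adjusted p = 0.00963) and 0.33 in the KO (edgeR adjusted p = 0.0137). Gfap itself was read at 1196 to 2650 CPM and did not pass the test. Per the methods the meninges had been removed and nearly all cells of such cultures stained for GFAP. The part of mural cells or fibroblasts in the rise of the members was not tested.

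Genes whose log2 CPM followed Acta2 most closely over the 8 libraries were Sertad4 (Pearson r 0.9972), Mfap4 (0.9967), Golim4 (0.9965), Ldlrad4 (0.9964) and Kdelr3 (0.9963). For Tagln they were Nexn (0.9989), Fzd6 (0.998), Ssr3 (0.9971), Maea (0.9971) and Glis2 (0.9968). Nexn came from the contractile list, and the other 9 genes were in none of the lists used here. Their fold changes differed widely. Mfap4, a matrix protein, changed by 2.80 in WT and 3.09 in the KO on the log2 scale, while Maea, part of a ubiquitin ligase complex, changed by 0.42 and 0.49. The libraries share the TGF-β contrast, and the values carry no test.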

How the data were processed

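Per the labels, RNA from 8 astrocyte cultures was sequenced in unstranded libraries. The authors used STAR (VIPER pipeline) for alignment and deposited raw counts per gene symbol, and a table of FPKM values ascribed to Cufflinks. The submitters' processing notes name the build mm10, and the counting program and annotation are not given in the sources used here. The deposited DESeq tables hold the authors' own fold changes and p-values and were not used.

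The tests used edgeR 4.0.16 in R 4.3.3 (filterByExpr, TMM scaling and 1 quasi-likelihood model with 4 group means over 8 libraries, tested on simulated data), and limma 3.58.1 and DESeq2 1.42.0 were alternatives. P-values are 2-sided, with Benjamini-Hochberg adjustment over 13509 genes. They rest on the spread between the 2 libraries of a group, pooled over all 4 groups and moderated across genes. The spread within the groups compared is not measured on its own. The log2 CPM used a prior count of 2, and FPKM alternatives log2(FPKM + 1) or log2(FPKM + 0.1). Named genes are the members, Rgcc, in each TGF-β comparison, for the contractile, regulator and paralogue lists, the 3 genes with the largest change past the threshold, Myh11, Myocd, Srf, Mrtfa, Mrtfb, Actb, Actg1, cell type markers by list, and the 5 nearest genes in pattern to Acta2 and Tagln. The members and lists were chosen with earlier results of these data known. Positions and windows come from GENCODE M21 and RefSeq. In total 24 alternative settings were tried. Part of the oligodendrocyte lineage list is not reported here.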

Additional observations from a re-analysis of the deposited data

How the results depend on the processing

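The alternatives were DESeq2, limma-voom, edgeR on the 4 libraries of a comparison, other filters, scalings and corrections, FPKM with limma, replicate blocks and each library left out, where the lone library is assumed to vary like the other groups. The number of members past the threshold, 6 in WT and 7 in the KO, moved past 1.5 times under 2 settings. With Bonferroni's correction 0 passed in either genotype, and with glmTreat against a fold of 1.5, 3 passed in each (Acta2, Actg2 and Tagln). Without each library in turn the count was 6 to 6 in WT and 6 to 7 in the KO, and the interaction and both genotype comparisons gave 0 members under every setting run. Upper quartile and total count scaling moved the median of all genes to -0.09 and -0.15 in WT and to -0.08 and -0.13 in the KO, and with them the split of calls over all genes, from 1043 higher and 763 lower in WT to 857 and 1055, and to 760 and 1353.

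Values that changed sign were all ones that had not passed a test. The response of Cnn1 in WT was -0.0551 with total counts, -0.0232 on FPKM with and without a filter, -0.0234 with the smaller pseudocount, and -0.0142 to 0.1922 without each library. In the interaction, FPKM gave 0.0325 for Cnn2 and 0.0009 for Tpm2. Leaving out each library gave -0.5706 to 0.1047 for Actg2, -0.2839 to 0.0508 for Tagln, -0.1372 to 0.1001 for Cnn2, -0.1787 to 0.2247 for Tpm1, -0.2659 to 0.0895 for Tpm2, -0.1559 to 0.0259 for Tpm4 and -0.1094 to 0.0915 for Cald1. For WT against KO without TGF-β, Cnn1 ran from -0.0159 to 0.1734. With TGF-β, Myl9 was 0.0011 with at least 10 counts in every library and 0.0034 on FPKM, and Tagln -0.0089 and -0.0316 with upper quartile and total count scaling. There the libraries left out gave -0.0656 to 0.1362 for Acta2, -0.0802 to 0.5006 for Actg2, -0.1740 to 0.1607 for Tagln, -0.1325 to 0.0538 for Cnn1, -0.0652 to 0.1720 for Cnn2, -0.1099 to 0.0990 for Myl9 and -0.0750 to 0.3284 for Tpm1. The cause was not tested.

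Same-numbered control and TGF-β libraries deviated in opposite ways (correlation -0.343 in WT and -0.348 in the KO), while across genotypes they deviated together (0.491 between WT and KO control, 0.253 between WT and KO TGF-β), so the numbers were not taken to pair the samples in all groups. A replicate block gave 957 higher and 659 lower genes in WT and left 6 and 7 members past the threshold and 0 in the interaction and the genotype comparisons, and a crossed pairing, chosen after the data were seen, gave 1167 and 938 genes and the same 6 and 7. The main fit held no block, and calls over all genes for WT against KO with TGF-β depended on the setting. They were 3 higher and 3 lower in the main fit, and 1 and 2 with the replicate block. With the crossed pairing they were 25 and 11, and with DESeq2 22 and 12. The interaction gave 0 calls over all genes under each of these. With 2 libraries a group, the widest member interval in the interaction, that of Actg2, runs from -0.99 to 0.55 in the main fit. Myocd and Actc1 had too few counts to be tested at this depth.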
